A study of Arabidopsis thaliana with 9 samples.

Results

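AT1G62290 and AT4G16563 are a pair of Arabidopsis thaliana genes for aspartic proteases. They were chosen by name, as the probe sets that the array annotation pairs with 1 of these loci alone. The reason was that earlier results of these data showed AT1G62290 low in leaves of bio4-1. Both genes were also higher there in biotin-watered than in water-grown bio4-1. Each had 1 probe set, so they were 2 of 13356 genes with a singly named probe set. APA1 (AT1G11910) and AT4G04460, the nearest relatives of AT1G62290, were set beside them.

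Leaf RNA was measured on Affymetrix ATH1 arrays, 1-colour arrays that read each transcript with several short probes, and all levels are log2 values. The wild type group was ecotype Col-0 watered with plain water, the bio4-1 group was the Col-0 mutant with T-DNA in the 5′ UTR of the biotin synthesis gene BIO4, also given water, and the third group was bio4-1 given 200 µM D-biotin in the water. Each group had 3 arrays of rosette leaves at 5 weeks, each from RNA of 5 pooled plants. The mutant is a single insertion line. No wild type given biotin was analysed here, so an effect of biotin on any plant cannot be told apart from one particular to the mutant. P-values reflect only how far these pools differed.

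Aspartic proteases of the pepsin family cut proteins with a pair of catalytic aspartates and work best in acid compartments. AT1G62290, APA1 and AT4G04460 belong to the typical plant type, the phytepsins, which carry an extra saposin-like insert and are best known from the vacuole, where they take part in processing and breaking down stored proteins. AT4G16563 belongs to the much larger group of plant aspartic proteases that lack this insert, many of which are predicted to be secreted.

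The arrays numbered 1 stood apart in every group. The 18 pairs of arrays with exactly 1 of them correlated at 0.950 to 0.972 over probe sets, against 0.987 to 0.997 for the 15 pairs among arrays 2 and 3. The 3 pairs among the arrays numbered 1 correlated at 0.950 to 0.994, so these arrays also differed among themselves. For actin, the 3′ control probe set exceeded the 5′ one by 3.67 to 4.13 (log2) on these arrays and by 2.27 to 2.76 on the rest. Differences are therefore given for all 9 arrays and for arrays 2 and 3 alone. Array medians lay between 5.95 and 6.07, and the number of arrays limits the precision. RCA, the rubisco activase gene of green tissue, had log2 levels of 13.77 to 13.86 on the 9 arrays, whereas EXPA7, a root hair expansin gene, had 3.68 to 3.90. FMA, a guard cell transcription factor gene, had 6.33 to 6.50 in wild type, 5.79 to 6.76 in bio4-1 and 6.08 to 6.50 with biotin, so its groups overlapped. These were the 3 of 34 written tissue markers that had a named probe set.

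AT1G62290, on chromosome 1, was low in bio4-1 and mostly regained its level with biotin. In wild type its log2 level was 6.90, 7.71 and 7.97 on arrays 1, 2 and 3. In bio4-1 it was 4.55, 5.34 and 5.20, and in biotin-watered bio4-1 it was 6.17, 7.08 and 7.58. All 3 bio4-1 arrays lay below every array of both other groups, which overlapped each other. This order, which the choice of the gene used, was seen for 2.12% of all genes. In such bulk leaf samples, fewer cells of a type and less RNA per cell cannot be told apart.

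**Figure D1:**
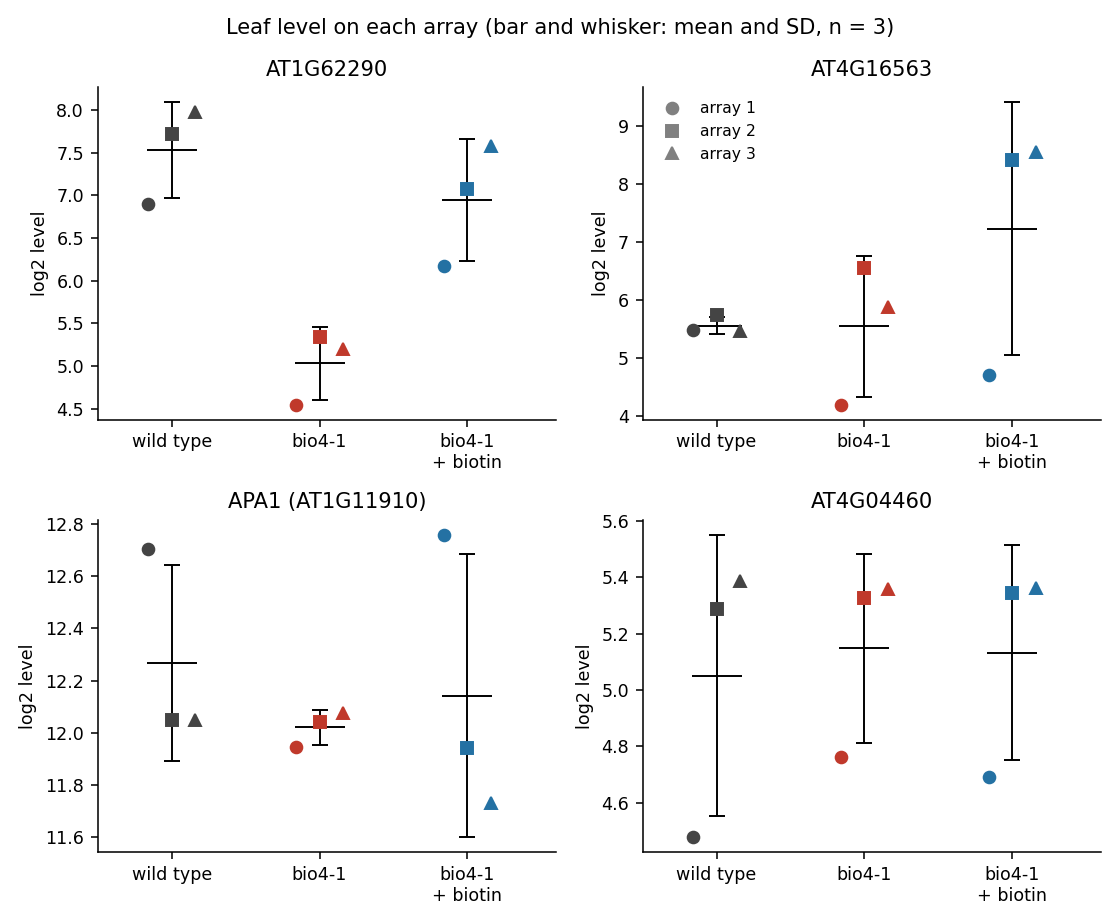
Log2 level of AT1G62290, AT4G16563, APA1 and AT4G04460 on each of the 9 arrays, with the mean and SD of each group (n = 3) and a symbol for the array number; each panel has its own axis. AT1G62290 was lowest on the 3 bio4-1 arrays, AT4G16563 was highest on biotin-watered arrays 2 and 3, and the arrays of APA1 and AT4G04460 overlapped between groups.

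The group means of AT1G62290 were 7.53 ± 0.56 (SD, n = 3) in wild type, 5.03 ± 0.42 in bio4-1 and 6.94 ± 0.71 with biotin. The bio4-1 mean was 2.50 ± 0.42 (SE) below wild type on the log2 scale, a 5.66-fold difference. With biotin it was 1.91 ± 0.42 higher than in bio4-1, a 3.77-fold difference. The biotin-watered mean remained 0.59 ± 0.42 below wild type. These values, which chose the gene, are a description and carry no test.

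The arrays numbered 1 showed the same order for AT1G62290, at a lower level in each group. On them bio4-1 differed from wild type by −2.35 and the biotin-watered array from bio4-1 by 1.63. Arrays 2 and 3 gave −2.57 ± 0.18 (SE) and 2.06 ± 0.18 for the same differences, and −0.52 ± 0.18 for biotin-watered bio4-1 minus wild type. The biotin-watered plants had thus regained 76.6% of the log2 gap between bio4-1 and wild type over 9 arrays, 79.9% over arrays 2 and 3, and 69.2% between the single arrays numbered 1.

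AT4G16563, on chromosome 4, had another pattern, in which the biotin-watered plants stood above both water-grown groups on arrays 2 and 3. Its log2 level was 5.49, 5.74 and 5.47 on the wild type arrays. In bio4-1 it was 4.20, 6.56 and 5.89, and with biotin it was 4.71, 8.42 and 8.56. Biotin-watered arrays 2 and 3 were the highest of all, but biotin-watered array 1 lay below every wild type array, so all 3 groups overlapped.

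The means of AT4G16563 were 5.56 ± 0.15 (SD, n = 3), 5.55 ± 1.22 and 7.23 ± 2.18 in wild type, bio4-1 and biotin-watered bio4-1. On 9 arrays biotin-watered bio4-1 was 1.68 ± 1.03 (SE) above bio4-1 and 1.67 ± 1.03 above wild type, and bio4-1 differed from wild type by −0.01 ± 1.03. On arrays 2 and 3 the same differences were 2.27 ± 0.21, 2.89 ± 0.21 and 0.62 ± 0.21, and the biotin-watered plants were thus 4.81-fold above bio4-1 and 7.40-fold above wild type there. The single arrays numbered 1 gave 0.51, −0.77 and −1.29. Those against wild type had the opposite sign to arrays 2 and 3, and the part of the arrays numbered 1, with their larger actin difference, was not tested. Leaving out biotin-watered array 1 alone gave 2.94 above bio4-1 and 2.93 above wild type, whereas leaving out biotin-watered array 2 or 3, or bio4-1 array 1, gave 1.09, 1.02 and 1.01 above bio4-1. Against wild type, leaving out biotin-watered array 2 or 3 gave 1.07 and 1.00. Without bio4-1 array 1, bio4-1 was 0.66 above wild type.

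**Figure D2:**
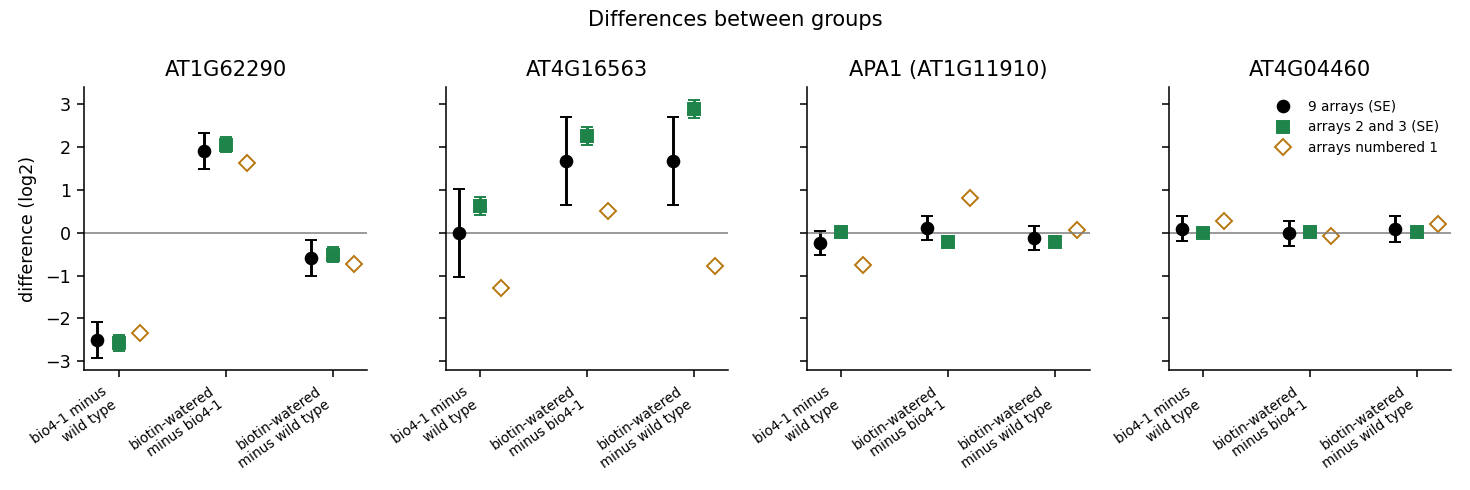
Differences between groups on the log2 scale for AT1G62290, AT4G16563, APA1 and AT4G04460, on all 9 arrays and on arrays 2 and 3 (points with SE) and between the single arrays numbered 1 (open diamonds, no error). The 3 estimates lay close together for AT1G62290, and for AT4G16563 those against wild type differed in sign, at 1.67, 2.89 and −0.77 for the biotin-watered plants.

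As a description over the arrays, AT1G62290 and AT4G16563 had a Pearson correlation of 0.42 over 9 arrays and 0.13 over the 6 arrays numbered 2 and 3. All of these points share the arrays and their groups.

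The relatives of AT1G62290 were not chosen for their change and were tested. APA1, which encodes aspartic proteinase A1, had log2 levels of 12.70, 12.05 and 12.05 in wild type, 11.95, 12.04 and 12.08 in bio4-1, and 12.76, 11.94 and 11.73 with biotin. The high values were those of wild type and biotin-watered array 1, and all groups overlapped. On 9 arrays bio4-1 differed from wild type by −0.25 ± 0.28 (SE), with a 95% interval of −0.89 to 0.40 and a limma adjusted p of 0.946, and biotin-watered bio4-1 differed from bio4-1 by 0.12 ± 0.28 (−0.53 to 0.77; adjusted p = 1). On arrays 2 and 3 the same differences were 0.01 ± 0.11 (−0.24 to 0.26) and −0.22 ± 0.11 (−0.47 to 0.02), with limma adjusted p of 0.981 and 0.348.

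AT4G04460 had log2 levels of 4.48, 5.29 and 5.39 in wild type, 4.76, 5.33 and 5.36 in bio4-1, and 4.69, 5.34 and 5.36 with biotin. Array 1 was the lowest in each group, the other arrays lay between 5.29 and 5.39, and the groups overlapped. On 9 arrays bio4-1 minus wild type was 0.10 ± 0.30 (SE; 95% interval −0.60 to 0.79) and biotin-watered bio4-1 minus bio4-1 was −0.02 ± 0.30 (−0.71 to 0.68), with limma adjusted p of 0.987 and 1. Arrays 2 and 3 gave 0.00 ± 0.09 (−0.22 to 0.22) and 0.01 ± 0.09 (−0.21 to 0.23). These levels lay below the array medians, where a change in a transcript can be understated, and whether the transcript was above background is not known from the deposited values. Biotin-watered bio4-1 differed from wild type by −0.12 ± 0.28 for APA1 and 0.08 ± 0.30 for AT4G04460 on 9 arrays (limma adjusted p = 1 for both).

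The wider family was described from 67 loci written as aspartic proteases of the pepsin family, of which 54 were measured, 52 besides AT1G62290 and AT4G16563. On 9 arrays none of the 52 passed a limma adjusted p of 0.05 in any comparison. The share called among all 13356 genes was 0.0374% for bio4-1 minus wild type, 0% for biotin-watered bio4-1 minus bio4-1 and 0.00749% for biotin-watered bio4-1 minus wild type. In the same order, 3, 2 and 0 of the 52 had an unadjusted p under 0.05, against 6.6%, 4.12% and 2.31% of all genes. On 9 arrays the groups did not overlap for 7 of the 52 in the first comparison, 4 higher and 3 lower, or 13.5%, where 12.4% of all genes did not overlap, 5.55% higher and 6.85% lower. For biotin-watered bio4-1 minus bio4-1 it was 4 of the 52, 3 higher and 1 lower, or 7.69%, against 8.72% of all genes, 5.08% higher and 3.63% lower. For biotin-watered bio4-1 minus wild type it was 3, all higher, or 5.77%, against 6.07% of all genes, 3.14% higher and 2.94% lower. These shares lay near those of all genes. The median difference of the 52 between bio4-1 and wild type was −0.03, as for all genes, and 44 lay within 0.5 of 0.

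**Figure D3:**
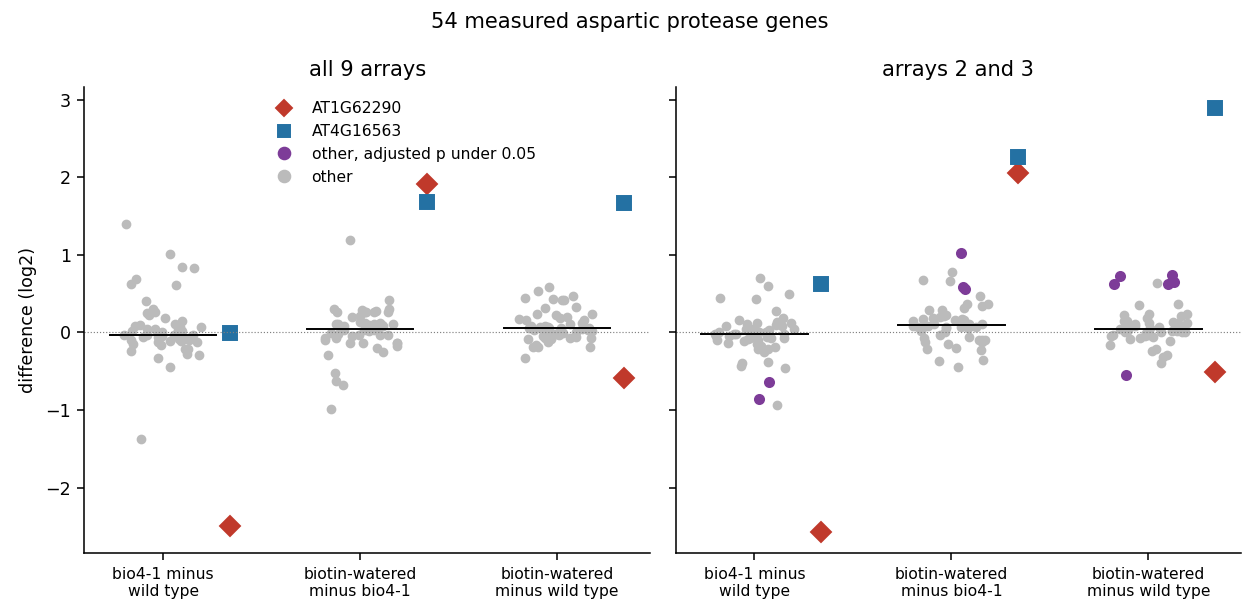
Differences on the log2 scale of the 54 measured aspartic protease genes in each comparison, on all 9 arrays and on arrays 2 and 3, with the median of the 54 as a line and members past the limma threshold in purple. AT1G62290 in bio4-1 minus wild type and both genes in biotin-watered minus bio4-1 lay outside the spread of the other 52, none of which passed the limma threshold on 9 arrays. These differences were the ones that chose both genes, so their place outside the spread is a description and no test.

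On arrays 2 and 3 the limma threshold was passed by 3.39%, 2.74% and 4.29% of all genes in the 3 comparisons. There 2 of the 52 (3.85%) fell and none rose in bio4-1 against wild type, against 1.49% of all genes that fell and 1.9% that rose. The 2 were AT4G33490 and AT3G61820. With biotin, 3 of the 52 (5.77%) rose against bio4-1 and none fell, where 1.24% of all genes rose and 1.5% fell, namely AT3G54400, AT5G07030 and AT4G33490. With the replicate number as a block, 6 of the 52 and 644 of all genes passed in that comparison instead of 3 and 366, among them AT3G52500, at 0.67 (limma adjusted p = 0.0108 with the block and 0.0526 without). Against wild type, 5 of the 52 were higher and 1 was lower in biotin-watered plants (11.5%), where 2.09% of all genes were higher and 2.2% lower. An unadjusted p under 0.05 was reached by 13, 13 and 11 of the 52, against 16.3%, 15.2% and 14% of all genes. The median differences of the 52 there were −0.02, 0.09 and 0.05, against −0.02, 0.01 and −0.00 for all genes.

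Like AT1G62290 and 2.12% of all genes, AT4G33490 had all bio4-1 arrays below every array of both other groups. It was the only member of the 52 that did. Its log2 levels were 8.80, 8.77 and 8.84 in wild type, 6.40, 7.94 and 7.95 in bio4-1, and 8.84, 8.48 and 8.53 with biotin. It fell by 0.86 ± 0.09 (SE) in bio4-1 on arrays 2 and 3 (limma adjusted p = 0.00594) and rose by 0.57 ± 0.09 with biotin (adjusted p = 0.0251). On 9 arrays the differences were −1.37 ± 0.38 and 1.19 ± 0.38, with limma adjusted p of 0.443 and 1, and the arrays numbered 1 gave −2.40 and 2.44. The fall on arrays 2 and 3 kept its call without biotin-watered array 2 or 3 (adjusted p = 0.0346 for both) and lost it without any 1 of the wild type or bio4-1 arrays, and the rise lost its call without any 1 of the 6 arrays, with adjusted p of 0.0713 to 0.192.

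AT3G51330 had the reverse order, with all bio4-1 arrays above every array of both other groups, as 2.13% of all genes had. Its log2 levels were 4.34, 5.03 and 4.67 in wild type, 7.16, 5.62 and 5.46 in bio4-1, and 4.90, 5.06 and 5.33 with biotin. The bio4-1 mean was 1.40 ± 0.42 (SE) above wild type on 9 arrays and 0.70 ± 0.15 above it on arrays 2 and 3, with limma adjusted p of 0.494 and 0.0549, so this difference did not pass in either fit.

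The remaining calls in the family rested on arrays 2 and 3, and several had another sign on the arrays numbered 1. AT3G61820 fell by 0.64 ± 0.11 (SE) in bio4-1 (limma adjusted p = 0.0259) but was 0.92 higher there on the arrays numbered 1. AT3G54400 rose by 1.03 ± 0.12 and AT5G07030 by 0.59 ± 0.11 with biotin (limma adjusted p = 0.0107 and 0.0313), with −2.17 and −0.37 on the arrays numbered 1. Against wild type, AT1G66180 was 0.74, NANA 0.72, AT3G52500 0.65, AT3G54400 0.63 and AT3G59080 0.62 higher in biotin-watered plants, and AT3G61820 differed by −0.55. Their limma adjusted p were 0.00745, 0.00899, 0.0459, 0.0278, 0.0177 and 0.0342. On the arrays numbered 1 these 6 differed by −0.15, 0.16, −0.01, 0.49, 0.17 and 0.12. NANA is known as a chloroplast aspartic protease gene. Of these calls, only those of AT1G66180 and NANA held without an array, bio4-1 array 2 or 3 (limma adjusted p = 0.0401 and 0.0459), and they were lost without any 1 of the wild type or biotin-watered arrays.

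Phytepsins share the vacuole with legumain-type processing enzymes and papain-type proteases, and 10 of 23 loci written for vacuolar proteases and their sorting receptors were measured, none of them a receptor. Without a block, none passed the limma threshold in any comparison, on 9 arrays or on arrays 2 and 3. On 9 arrays 0 of the 10 had an unadjusted p under 0.05 in any comparison, and on arrays 2 and 3 there were 3, all in biotin-watered bio4-1 minus bio4-1, where 15.2% of all genes had one. The processing enzyme genes ALPHA-VPE, BETA-VPE, GAMMA-VPE and DELTA-VPE differed between bio4-1 and wild type by 0.01, −0.74, −0.02 and 0.05 on 9 arrays, while BETA-VPE differed by 0.43 over arrays 2 and 3 but by −3.08 between the single arrays numbered 1. With biotin, BETA-VPE was 0.62 lower than in bio4-1 on arrays 2 and 3 (limma adjusted p = 0.211). With the replicate number as a block there, its limma adjusted p was 0.0361, and 644 of all genes passed instead of 366. On the arrays numbered 1 BETA-VPE was 3.47 higher. The median difference of the 10 between bio4-1 and wild type was −0.09 on 9 arrays and 0.08 on arrays 2 and 3, against −0.03 and −0.02 for all genes. Of the 10, 8 were negative on 9 arrays and 8 positive on arrays 2 and 3. For biotin-watered bio4-1 minus bio4-1 the median was 0.03 over 9 arrays, as for all genes, with 7 of the 10 positive. Over arrays 2 and 3 it was −0.16, with 8 of the 10 negative, against 0.01 for all genes. For biotin-watered bio4-1 minus wild type the median was −0.05 and −0.07, with 7 and 8 of the 10 negative. All genes had −0.00 there on either set of arrays.

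The measured gene next to AT1G62290, with no protein-coding gene between them in RefSeq, was WRKY6, which encodes a transcription factor known from senescence and defence. Its log2 level was 4.78, 4.69 and 5.10 in wild type, 7.03, 6.31 and 6.25 in bio4-1, and 4.86, 4.69 and 4.59 with biotin. All bio4-1 arrays lay above every array of both other groups, as for 2.13% of all genes, the reverse of AT1G62290. WRKY6 rose by 1.39 ± 0.14 (SE) in bio4-1 and fell by 1.64 ± 0.14 with biotin on arrays 2 and 3, with limma adjusted p of 0.0054 and 0.00427.

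On 9 arrays the differences of WRKY6 were 1.68 ± 0.22 and −1.82 ± 0.22 with limma adjusted p of 0.0973 and 0.184, and the arrays numbered 1 gave 2.25 and −2.17. The rise on arrays 2 and 3 lost its call without wild type array 2 (adjusted p = 0.0543) or bio4-1 array 2 or 3 (0.145 and 0.0667), and the fall lost it without bio4-1 array 2 or 3 or biotin-watered array 3 (0.107, 0.12 and 0.0945). Across the arrays, which share their groups, WRKY6 and AT1G62290 had a Pearson correlation of −0.89 (n = 9 arrays). The 5 other measured neighbours of AT1G62290 lay further off, with 2 to 12 protein-coding genes between. They differed between bio4-1 and wild type by −0.21 to 0.06 on 9 arrays and by −0.21 to 0.39 on arrays 2 and 3. None passed the limma threshold on either set of arrays. The 0.39 was that of AT1G62310 (limma adjusted p = 0.0836), which differed by −0.59 on the arrays numbered 1.

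**Figure D4:**
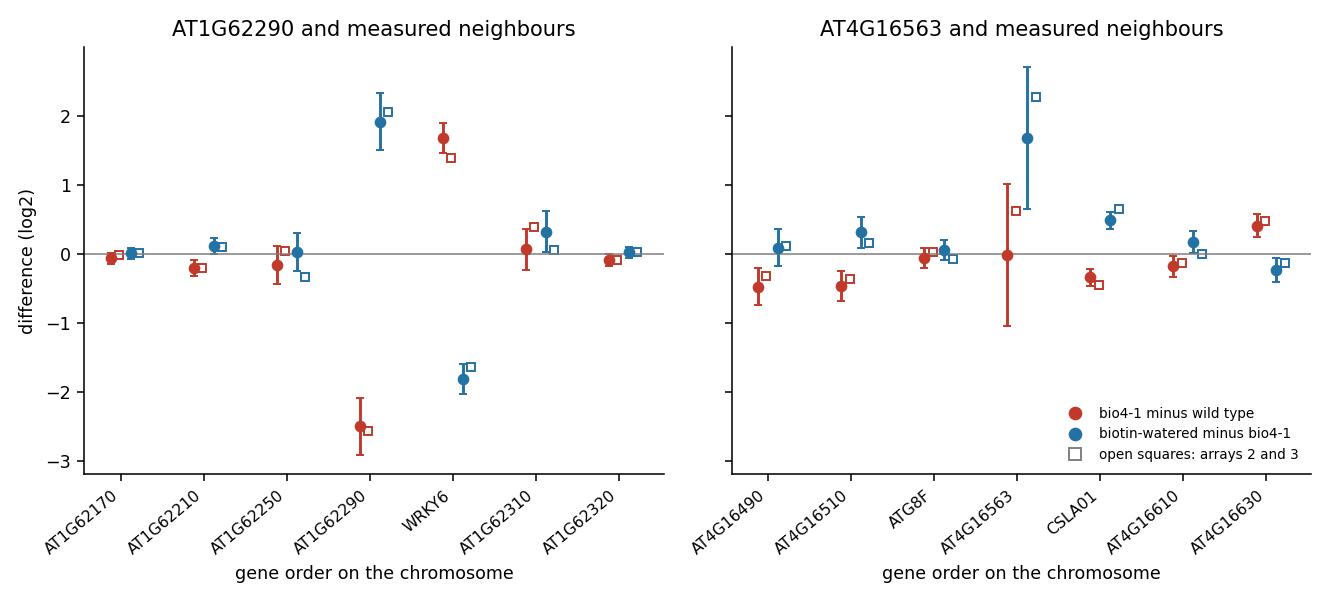
Differences on the log2 scale of AT1G62290, AT4G16563 and their 3 measured neighbours on either side, in gene order, for bio4-1 minus wild type and biotin-watered bio4-1 minus bio4-1 (filled points with SE on 9 arrays, open squares on arrays 2 and 3). WRKY6, beside AT1G62290, had differences of the opposite sign, 1.68 and −1.82, and the other neighbours lay nearer 0.

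The 6 measured neighbours of AT4G16563 were not adjacent to it, with 3 to 11 protein-coding genes between in RefSeq. Of them, CSLA01, a mannan synthase gene of the cellulose synthase-like family, rose by 0.65 ± 0.11 (SE) with biotin on arrays 2 and 3 (limma adjusted p = 0.0259). There 1.24% of all genes rose, and how this call fared without single arrays is not given here. The rise of CSLA01 was 0.48 ± 0.12 on 9 arrays (limma adjusted p = 0.823) and 0.15 on the arrays numbered 1. Its log2 levels were 4.03, 4.06 and 4.22 in wild type, 3.90, 3.77 and 3.60 in bio4-1, and 4.06, 4.32 and 4.35 with biotin. All of these levels lay below the array medians, and whether the transcript was above background is not known from the deposited values. ATG8F, of the autophagy ubiquitin-like proteins, had 11.18 to 11.62 on the 9 arrays. No neighbour of AT4G16563 passed on 9 arrays.

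The genes with the pattern most like AT1G62290 were found by Pearson correlation of log2 levels, once over 9 arrays and once over the 6 arrays numbered 2 and 3. Over 9 arrays the 5 highest were SFP2 (0.965), AT1G12010 (0.964), AT3G13650 (0.959), AT5G03370 (0.95) and AT2G35040 (0.941). SFP2, a sugar transporter family gene, was also on the list over 6 arrays (0.990), with AT1G66760 (0.994), AT3G18280 (0.992), AT1G53560 (0.992) and AT2G25270 (0.990). SFP2 had log2 levels of 6.75 to 6.87 in wild type, 5.59 to 6.01 in bio4-1, and 6.10 to 6.70 with biotin. The order of its groups was that of AT1G62290, over a range of 1.28 against 3.43 for AT1G62290. The 5 genes listed over 9 arrays had ranges of 0.59 (AT2G35040) to 1.69 (AT1G12010). Those listed over 6 arrays had ranges of 0.32 (AT2G25270) to 0.87 (SFP2) there, against 2.78 for AT1G62290. AT1G12010 had bio4-1 minus wild type of −1.18 on 9 arrays and 0.83 with biotin.

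For AT4G16563 the 5 highest over 9 arrays were AT5G37710 (0.984), AT3G13674 (0.975), AT1G11380 (0.972), AT5G58900 (0.969) and AT5G02170 (0.962). Over the 6 arrays numbered 2 and 3 they were EXLA1 (0.998), AT1G59710 (0.993), AT1G72790 (0.992), RALFL22 (0.991) and AT4G01760 (0.989), so the lists shared no gene. Ranges on the first list were 0.36 (AT5G02170) to 3.35 (AT1G11380), against 4.36 for AT4G16563. On the second they were 0.51 (AT4G01760) to 3.02 (EXLA1), against 3.09. AT5G02170 and AT4G01760 reached no more than 4.25 and 4.13, below the array medians. EXLA1, an expansin-like gene of the cell wall, had 4.78, 6.48 and 6.28 in wild type, 4.99, 7.29 and 6.81 in bio4-1, and 5.10, 9.30 and 9.29 with biotin. Its highest arrays were biotin-watered 2 and 3, as for AT4G16563. AT1G11380 had 6.55, 7.19 and 6.97, then 6.25, 7.90 and 7.99, then 6.52, 9.60 and 9.57 in the same order. RALFL22, a gene for a RALF-like signalling peptide, reached 9.53 and 9.60 on biotin-watered arrays 2 and 3 and had 7.42 to 8.54 on the other arrays. These correlations are the highest among all genes over few arrays that share their groups, and none was tested.

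**Figure D5:**
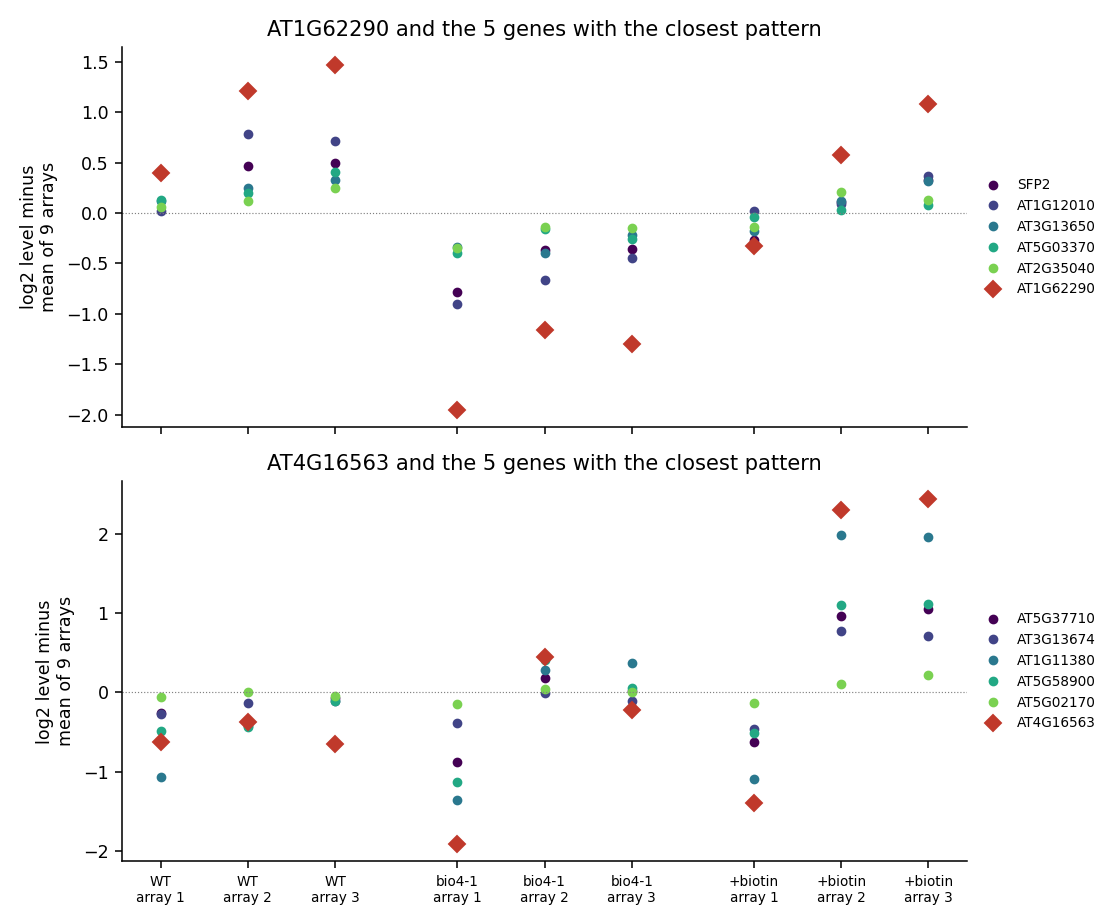
Log2 level minus the mean of 9 arrays for AT1G62290 (top) and AT4G16563 (bottom), each with the 5 genes of highest Pearson correlation over 9 arrays, plotted for each array. The bio4-1 arrays were the low ones for AT1G62290 and SFP2, and biotin-watered arrays 2 and 3 were the high ones for AT4G16563 and AT1G11380, whose biotin-watered array 1 was low.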

How the data were processed

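The authors deposited log2 values for 9 ATH1 arrays, 3 per group, made with RMA per the submitters' processing notes; its version is not given in the sources used here. RMA corrects background, quantile-normalizes the arrays and combines a probe set's probes. After removal of 64 control probe sets from 22810, limma 3.58.1 (R 4.3.3) was fitted to the remaining 22746 across all groups together, without a block. P-values were adjusted by Benjamini and Hochberg's method over those probe sets within each comparison, with a threshold of 0.05. The annotation paired 13513 probe sets with 1 gene, 503 with several and 8730 with none. Each of 13356 genes is shown by its brightest singly paired probe set. RefSeq loci (TAIR10.1) were found for 13436 of these probe sets and served for names and gene order only, as the files name no genome build.

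The genes, lists and use of arrays 2 and 3 alone were chosen with earlier results of these data known, so AT1G62290 and AT4G16563 carry no test. Family loci were written from general knowledge, and the RefSeq table held no descriptions to check them. Besides AT1G62290, AT4G16563, APA1 and AT4G04460, the text names family members past the threshold on arrays 2 and 3 without a block. It also names the VPE genes of the vacuolar list and the 3 family members with the largest difference in each comparison. Also named are the 5 genes of highest Pearson correlation and, of the 3 measured neighbours on either side, WRKY6, AT1G62310, CSLA01 and ATG8F. RCA, EXPA7 and FMA are tissue markers. The planned protein and promoter sequences were not analysed here. Array numbers come from the labels, which do not say what they share. Deviations from the group means correlated over 0.1 for all 3 same-numbered pairs of biotin-watered bio4-1 with bio4-1 (0.27 to 0.35) and with wild type (0.61 to 0.83). For bio4-1 with wild type this held for 2 of 3 pairs (−0.03 to 0.36). Over arrays 2 and 3 alone, array 3 minus array 2 correlated at 0.10, 0.13 and 0.04 between the same groups. The shift of the arrays numbered 1 enters all deviations from the group means. In both other groups, 5 of 9 arrays correlated best with their own number. These values therefore do not settle whether the numbers pair the samples. The fit was tested on simulated data with independent noise on each array and changes in bio4-1 only. These data lacked the shift of the arrays numbered 1, so the check does not cover it. Tables and plots used Python 3.11.15 with pandas 2.3.3 and matplotlib 3.10.9. Alternatives were the replicate number or the arrays numbered 1 as a block, quantile normalization, median centring, filters at the 30th percentile and at log2 6, a trended robust variance, array weights, fits of only the 2 groups compared, and leaving out each array. Leaving out arrays, a replicate block and median centring on arrays 2 and 3 were added after seeing the data.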

Additional observations from a re-analysis of the deposited data

How the results depend on the processing

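The differences of AT1G62290 kept their sign in all alternatives, at −2.82 to −2.26 for bio4-1 minus wild type, 1.60 to 2.30 for biotin-watered bio4-1 minus bio4-1 and −0.90 to −0.20 for biotin-watered bio4-1 minus wild type when 1 of 9 arrays was left out. Those of AT4G16563 ran from −0.52 to 0.66, 1.01 to 2.94 and 1.00 to 2.93. In the order of these comparisons, 5, 0 and 1 genes passed on 9 arrays. Arrays 2 and 3 alone gave 453, 366 and 573, array weights 512, 423 and 1646, and the arrays numbered 1 as a block 33 and 7 in the first and second. The log2 6 filter gave 1 and fits of only the groups compared 2 in the first. Leaving out 1 array gave 1 to 5, 0 to 1 and 1 to 3. Leaving out 1 of arrays 2 and 3 gave 7 to 107, 0 to 56 and 2 to 226.

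Counts over all 54 family members include AT1G62290 and AT4G16563, whose calls are no test, so those of the other 52 follow. On 9 arrays 0 of the 54 passed, also without any 1 array. Arrays 2 and 3 gave 3, 5 and 7 (2, 3 and 6 of the 52), where 453, 366 and 573 of all 13356 genes passed. Array weights gave 3, 2 and 7 (2, 0 and 5), where 512, 423 and 1646 of all genes did. The arrays numbered 1 as a block gave 1 and 1 in the first and second comparison (0 and 0), where 33 and 7 did. Leaving out 1 of arrays 2 and 3 gave 0 to 2, 0 to 2 and 0 to 3 (0 to 1, 0 to 1 and 0 to 2). With a replicate block on 9 arrays 1 passed in the first comparison (0 of the 52), where 6 of all genes did. The replicate block on arrays 2 and 3 gave 6 and 8 in the first and second (5 and 6), where 712 and 644 of all genes passed, and 8 in the last (7), where 749 did. The numbers were not shown to pair the samples in any comparison.

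APA1 and AT4G04460 passed in none of 81 and 78 alternatives (limma adjusted p 0.186 to 1 and 0.676 to 1), so their changes of sign are between values that did not pass. For APA1 the sign changed on arrays 2 and 3 in the first and second comparison (0.0083 and −0.22), with array weights in the second (−0.11) and with median centring of arrays 2 and 3 in the first (−0.042). For AT4G04460 it changed in the second with quantile normalization (0.041), median centring (0.038), array weights (0.023) and arrays 2 and 3 (0.011), and in the first with median centring of arrays 2 and 3 (−0.047). Leaving out 1 of 9 arrays gave −0.35 to −0.03, −0.19 to 0.33 and −0.43 to 0.093 for APA1 and −0.19 to 0.29, −0.21 to 0.20 and −0.21 to 0.30 for AT4G04460. The same on arrays 2 and 3 gave −0.0098 to 0.026 for APA1 in the first, and −0.045 to 0.053, −0.0066 to 0.028 and −0.034 to 0.064 for AT4G04460. The cause was not tested. AT4G04460 has no value under the log2 6 filter, which drops it, and the deposited values give no signal over background.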
